A study of Mus musculus with 24 samples.

Results

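The genes described here are the 10 enzymes of the mouse that build purine and pyrimidine nucleotides from small precursors, namely Ppat, Gart, Pfas, Paics, Atic, Adsl, Impdh2, Cad, Dhodh and Umps. They were taken by gene name from a table of 55487 genes, and 10 of 10 passed the filter on low counts that left 15828 genes for testing. Poly(A) RNA was sequenced from MEFs (mouse embryonic fibroblasts, cells of embryonic connective tissue kept in culture), in 6 groups of 4 libraries, 24 libraries in all. WT cells and AMPK KO cells, which according to the study's methods lack both catalytic subunits of AMP-activated protein kinase (Prkaa1 and Prkaa2), each received vehicle (DMSO), the AMPK activator MK-8722 or the MTOR inhibitor torin1. The concentration and duration for these libraries are not given in the sources used here. The 2 genotypes are separate cell lines, WT at passages 12 to 15 and AMPK KO at passages 16 to 19, with 1 library of each passage in each group. Genotype, cell line and passage range therefore cannot be told apart. The labels say no more of how the cultures were derived, so p-values measure the spread between passages within a group.

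Purine synthesis assembles the base stepwise on an activated ribose. PPAT makes the first committed step, GART, PFAS, PAICS, ADSL and ATIC carry the ring to inosine monophosphate, and IMPDH2 turns that product towards guanine nucleotides. Pyrimidine synthesis builds the ring first: CAD performs the opening steps, DHODH oxidizes the intermediate at the inner mitochondrial membrane, and UMPS joins it to ribose. Proliferating cells such as cultured fibroblasts are known to rely on both pathways. MTOR complex 1 is known to promote both, in part through phosphorylation of CAD and through ATF4, a transcription factor that drives the mitochondrial folate enzyme MTHFD2, a source of one-carbon units for the purine ring.

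Total estimated counts ranged from 26900240 to 34192685 per library and RNA integrity numbers from 9.7 to 10.0. Levels are given in CPM, counts scaled to the library size after TMM normalization, except where genes are compared with each other, which uses TPM, an abundance per transcript length. Transcripts of Prkaa1 were present in the knockout, at 66.9 to 73.3 CPM in AMPK KO DMSO against 78.0 to 82.6 in WT DMSO, and those of Prkaa2 were at 2.34 to 4.48 against 3.22 to 5.71. The parts deleted are not given in the sources used here, so these transcripts do not check the labels. Of the fibroblast markers, Vim was at 1576 CPM or more and Fn1 at 1941 CPM or more in both DMSO groups, whereas Dcn was at 0.15 CPM or less and Thy1 at 1.48 CPM or less. The 10 fibroblast markers summed to 11195 to 15957 CPM in WT DMSO and 4815 to 5391 in AMPK KO DMSO. The 6 leukocyte markers summed to at most 4.71 CPM and the 5 endothelial markers to at most 8.76 CPM, both highest in WT MK-8722. The 6 epithelial markers summed to 17.2 to 69.1 CPM. The part of these markers in the results below was not tested.

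Per transcript length, Impdh2 had the highest level of the 10 enzymes in each of the 6 groups, Paics the second highest and Dhodh the lowest. In WT DMSO the mean TPM (± SD, n = 4) was 449 ± 32.5 for Impdh2, 280.0 ± 13.0 for Paics, 165 ± 7.96 for Atic, 140.0 ± 11.4 for Adsl and 118 ± 7.56 for Cad. It was 94.0 ± 4.92 for Gart, 49.6 ± 1.99 for Umps, 48.3 ± 5.03 for Ppat, 40.9 ± 3.68 for Pfas and 31.2 ± 1.55 for Dhodh. Neighbours in this order did not overlap between libraries except Umps and Ppat. Ppat, the gene of the first enzyme of the purine pathway, was thus among the 3 with the lowest TPM. TPM is summed here over all transcripts of a gene. In WT DMSO, 50.5% of that of Ppat lay in a transcript annotated as a retained intron. In AMPK KO DMSO, Gart (135 ± 4.17 TPM) stood above Cad (119.7 ± 2.44 TPM) and Adsl (179 ± 4.17 TPM) above Atic (166 ± 7.58 TPM), the reverse of their order in WT DMSO. Replicates lay close together: over the 60 combinations of gene and group, the coefficient of variation of the CPM ran from 1.69% to 11.2%, with a median of 5.14%. Impdh2 counts were not whole numbers in 24 of 24 libraries (tolerance 0.01 counts), as happens where reads are shared with similar sequences, so the level of Impdh2 is less certain than that of the other 9.

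**Figure D1:**
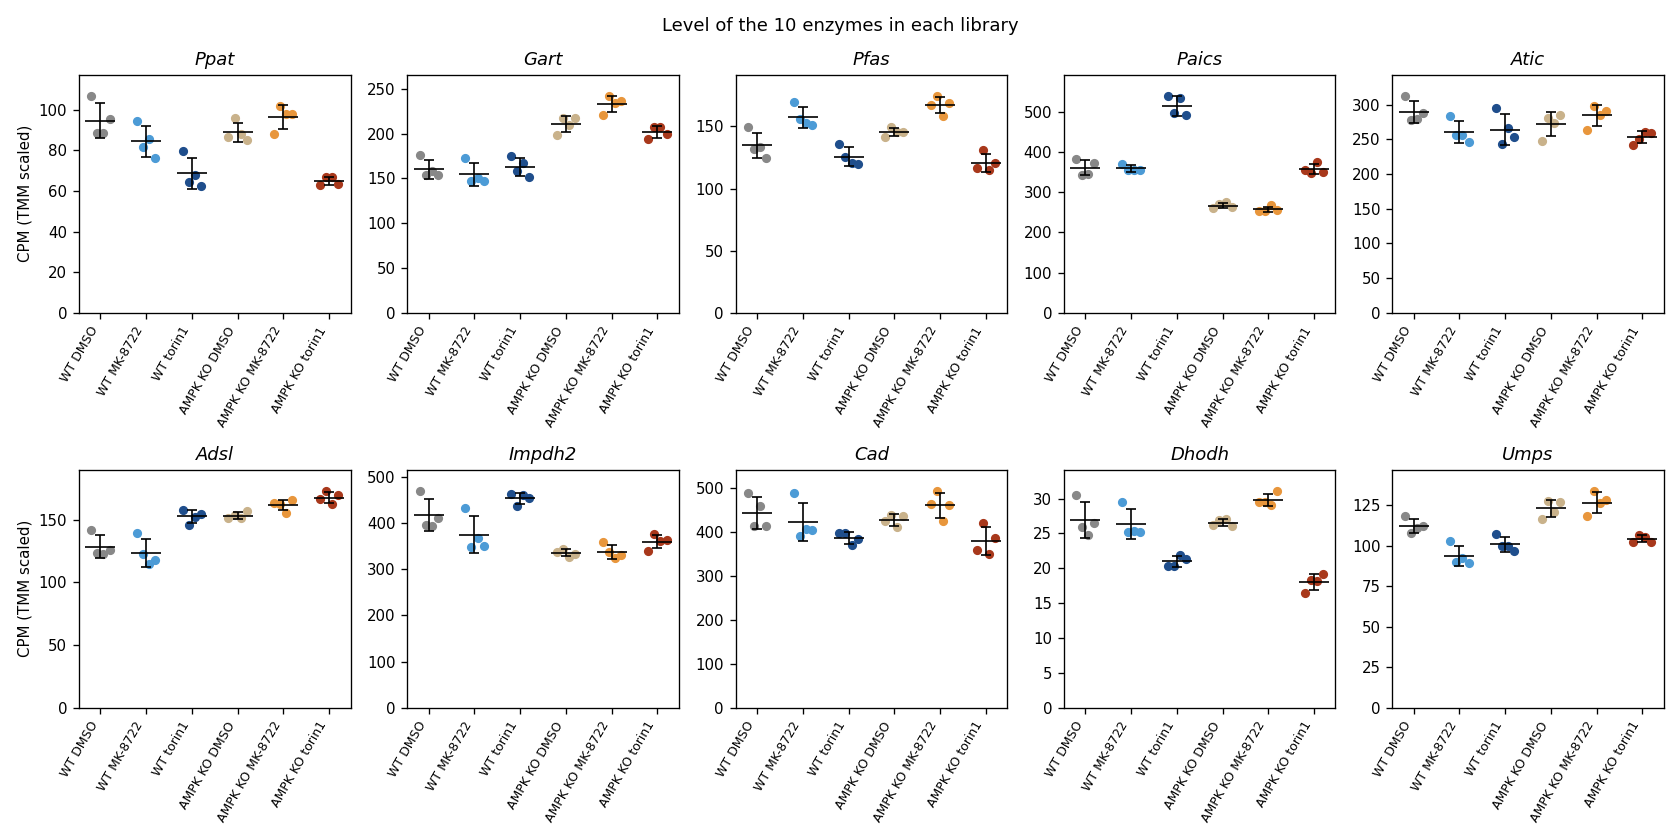
Level of each of the 10 enzymes in CPM (y axis, from 0) in the 6 groups (x axis). Points are libraries, placed from the lowest to the highest passage within a group, and bars are the mean ± SD of 4 libraries. Paics lies at 492 to 538 CPM in WT torin1 against 344 to 383 in WT DMSO, and Dhodh falls to 16.5 to 19.2 CPM in AMPK KO torin1.

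The first comparison asked how MTOR inhibition by torin1 changed these transcripts, in WT and in AMPK KO cells. The pathway did not move as a unit: Paics rose, Ppat and Dhodh fell in both genotypes, and most of the other enzymes stayed within 1.2-fold. A gene was called when its adjusted p was below 0.05 by edgeR's quasi-likelihood test, corrected by Benjamini-Hochberg over all genes tested, and its fold change was at least 1.2. By this rule 1 of 10 enzymes was higher and 2 of 10 were lower with torin1 in WT, where 26.6% of all genes tested were called higher and 21.1% lower. In AMPK KO, 1 of 10 was higher and 3 of 10 were lower, against 25.9% and 17.6% of all genes. The median log2 fold change of the 10 was -0.12 in WT and -0.14 in AMPK KO, beside 0.04 and 0.06 over all genes tested.

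Paics (chromosome 5, 76951307 to 76967509, plus strand; GRCm38) encodes the enzyme of the carboxylation and succinocarboxamide steps. It was at 345, 344, 373 and 383 CPM in WT DMSO and at 492, 496, 534 and 538 CPM in WT torin1. In AMPK KO it was at 262, 269, 261 and 275 CPM with DMSO and at 354, 348, 376 and 350.1 CPM with torin1. The treated and control libraries did not overlap in either genotype. Paics rose by 0.51 ± 0.04 (SE) on the log2 scale in WT (adjusted p = 1.3e-10, edgeR) and by 0.42 ± 0.04 in AMPK KO (adjusted p = 4.9e-09), a 1.43-fold and a 1.34-fold change. The call was kept in 8 of 8 fits that left out 1 library, in each genotype.

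Ppat (chromosome 5, 76913249 to 76951578, minus strand), the amidotransferase that commits ribose to purine synthesis, went the other way. It was at 88.4, 88.5, 95.2 and 107 CPM in WT DMSO and at 62.6, 64.7, 68.0 and 79.8 CPM in WT torin1. In AMPK KO it was at 85.3, 95.9, 86.6 and 88.1 CPM with DMSO and at 63.2, 66.9, 66.7 and 63.4 CPM with torin1. Every torin1 library lay below every DMSO library of its genotype. Ppat fell by 0.46 ± 0.07 on the log2 scale in WT (adjusted p = 7.4e-06, edgeR) and by 0.45 ± 0.07 in AMPK KO (adjusted p = 1.2e-05).

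Paics and Ppat are neighbours that face away from each other on chromosome 5, and their annotated spans overlap by 272 bases at their 5′ ends (76951307 to 76951578). The sources used here do not say whether reads were assigned by strand, so reads from that stretch may have been counted for the other gene. Counts were not whole numbers in 0 of 24 libraries for Ppat and in 1 of 24 for Paics (tolerance 0.01 counts), against 24 of 24 for Impdh2. Their ratio within a library does not depend on how libraries are scaled. The ratio of Paics to Ppat counts was 3.82 ± 0.16 (SD, n = 4) in WT DMSO, 4.26 ± 0.30 in WT MK-8722 and 7.53 ± 0.53 in WT torin1. In AMPK KO it was 3.0 ± 0.14 with DMSO, 2.68 ± 0.16 with MK-8722 and 5.49 ± 0.20 with torin1. The ratio was thus 1.97-fold higher with torin1 in WT and 1.83-fold higher in AMPK KO. Both p-values were 0.0286 in a two-sided exact permutation test of the log2 ratio, the smallest that 4 against 4 libraries allow (adjusted p = 0.0358 over 5 comparisons). The test was chosen after the values of both genes had been seen. In each genotype every torin1 library lay above the DMSO libraries for Paics and below them for Ppat, so the ratios had to separate. These p-values were therefore fixed in advance and add nothing to the tests of each gene. The adjusted p-values of the other comparisons of this ratio count them among the 5.

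**Figure D2:**
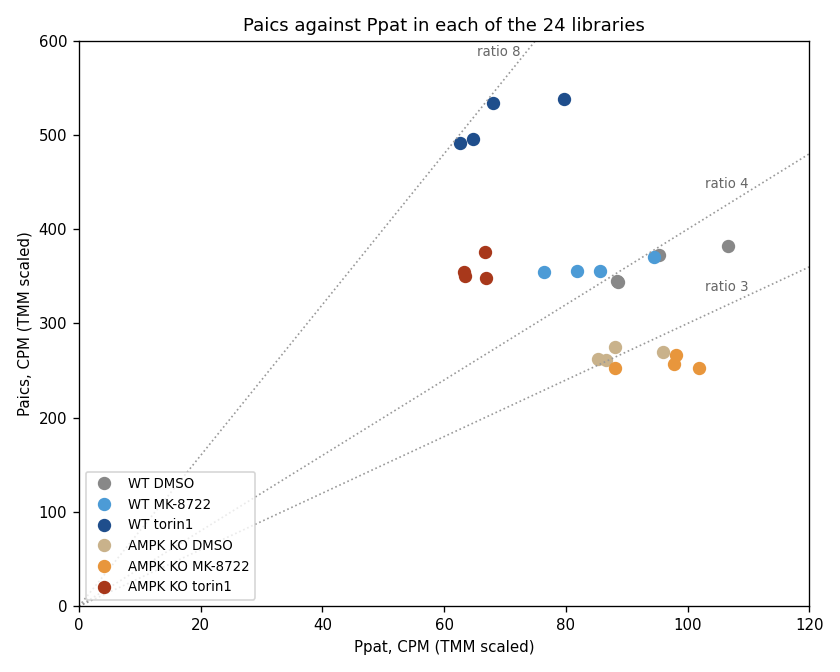
CPM of Paics (y axis) against CPM of Ppat (x axis) in the 24 libraries, coloured by group. Dotted lines mark ratios of 3, 4 and 8. The torin1 libraries of each genotype lie to the upper left of the DMSO libraries of the same genotype, with mean ratios of 7.53 in WT and 5.49 in AMPK KO.

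Promoter windows of 250 bases before to 50 after the start were available from RefSeq (GRCm38.p6) for 8 of the 10 enzymes. They were searched on both strands for CACGTG, the E-box core that MYC and the MiT/TFE factors are known to bind, for TGATGCAA and TGATGNAA, motifs of C/EBP-ATF dimers, and for TTTGGCGC and TTTCCCGC, motifs of E2F factors. TGATGCAA is contained in TGATGNAA, so these are not separate searches. Shares of the 8 count enzymes with a match, whereas shares of all windows count single windows. CACGTG was found for 3 of 8 enzymes (37.5%), Atic, Paics and Impdh2, and in 7.15% of all 32851 windows. TTTCCCGC was found for 1 of 8 enzymes (12.5%), Ppat, at 2 positions on the strand opposite to the gene, and in 1.07% of all windows. TGATGCAA, TGATGNAA and TTTGGCGC were found for none of the 8 enzymes and in 0.895%, 3.97% and 0.514% of all windows. The matches are shown with 30 bases each, on the strand of the gene and with the motif in capitals, because Paics and Ppat share this promoter region and moved in opposite directions. The Paics stretch is at chr5:76951087-76951116 inside the annotated span of Ppat, and the Ppat stretches are at chr5:76951771-76951800 and chr5:76951718-76951747 inside that of Paics. Those of Atic and Impdh2 are at chr1:71557137-71557166 and chr9:108560314-108560343. A match describes these letters and does not show that a factor is bound.
Paics E-box: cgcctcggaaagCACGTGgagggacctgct
Atic E-box: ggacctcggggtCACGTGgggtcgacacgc
Impdh2 E-box: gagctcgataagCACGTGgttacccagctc
Ppat E2F match 1: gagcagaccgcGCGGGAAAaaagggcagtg
Ppat E2F match 2: aggatcagaggGCGGGAAAgggaggtgcaa
Of the 3 genes with CACGTG, Paics was called with torin1 against DMSO, whereas Atic and Impdh2 were not. With torin1 against MK-8722 in WT, Paics and Impdh2 were called higher and Atic was not called. No window was available for Pfas and Dhodh, and the part of these motifs in the changes was not tested.

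The other purine enzymes changed less with torin1. Pfas (chromosome 11, 68985697 to 69008460, minus strand), the amidotransferase of the fourth step, was at 145, 149.9, 141 and 145 CPM in AMPK KO DMSO and at 117, 131, 115 and 121 CPM in AMPK KO torin1, with no overlap. It fell by 0.27 ± 0.05 on the log2 scale there (adjusted p = 0.00015, edgeR), just past the fold limit of 0.26. Leaving out AMPK KO DMSO replicate 2 or AMPK KO torin1 replicate 1 or 3 took the log2 value to between -0.26 and -0.25 and ended the call, as did scaling by library size alone (-0.21). In WT the log2 fold change of Pfas was -0.10 ± 0.05 (adjusted p = 0.1). Adsl (chromosome 15, 80948490 to 80970946, plus strand), the lyase that acts at more than one step, was at 123, 124, 126 and 142 CPM in WT DMSO and at 154, 146, 152 and 158 CPM in WT torin1. The WT groups did not overlap, but the log2 difference of 0.25 ± 0.05 (adjusted p = 0.00018) missed the fold limit. It passed in 3 of 8 fits that left out 1 library, those without WT DMSO replicate 4 (0.29) and WT torin1 replicates 1 (0.26) and 3 (0.27). It also passed with library size alone (0.35), at least 10 counts in every sample (0.28) and the offset for transcript length (0.28). In AMPK KO the log2 difference of Adsl was 0.13 ± 0.05 (adjusted p = 0.03).

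Gart (chromosome 16, 91621186 to 91646952, minus strand), which carries out several steps on a single polypeptide, showed log2 differences of 0.02 in WT, with a 95% interval of -0.09 to 0.14, and -0.06 in AMPK KO (-0.17 to 0.05). Atic (chromosome 1, 71557150 to 71579631, plus strand), which closes the ring, differed in WT by -0.13 (-0.25 to -0.01), and in AMPK KO by -0.10 (-0.22 to 0.02). Impdh2 (chromosome 9, 108560286 to 108565584, plus strand) had values of 0.12 in WT (-0.00089 to 0.24) and of 0.10 in AMPK KO (-0.02 to 0.22). In the main fit of all libraries, none of these intervals reached a log2 difference of 0.26, the fold limit. A 1.2-fold change lies outside each of them in that fit. With 1 library left out, Atic reached -0.20 in WT and -0.19 in AMPK KO, and Impdh2 reached 0.17 in WT. Under another setting Impdh2 reached 0.22 in WT. These fits gave no call for either gene, and their intervals are not given here.

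Among the pyrimidine enzymes, Dhodh (chromosome 8, 109591343 to 109608673, minus strand) showed the largest decrease with torin1 in AMPK KO of the 10 genes. It was at 24.7, 25.9, 26.5 and 30.5 CPM in WT DMSO and at 21.3, 20.2, 22 and 20.4 CPM in WT torin1. In AMPK KO it was at 26.0, 26.9, 26.3 and 27 CPM with DMSO and at 16.5, 18.4, 18.1 and 19.2 CPM with torin1. The groups did not overlap in either genotype. Dhodh fell by 0.36 ± 0.06 on the log2 scale in WT (adjusted p = 2.5e-05, edgeR) and by 0.56 ± 0.06 in AMPK KO (adjusted p = 6.4e-08). The WT call was lost with library size alone as scaling (-0.26). It was also lost when the null hypothesis was a 1.2-fold change rather than no change (adjusted p = 0.055).

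Cad (chromosome 5, 31054780 to 31078479, plus strand) and Umps (chromosome 16, 33954782 to 33967038, minus strand) were also lower with torin1 by the adjusted p, but by less than 1.2-fold. The log2 difference of Cad was -0.20 ± 0.07 in WT (adjusted p = 0.014) and -0.17 ± 0.07 in AMPK KO (adjusted p = 0.03). That of Umps was -0.16 ± 0.05 in WT (adjusted p = 0.0061) and -0.24 ± 0.05 in AMPK KO (adjusted p = 0.00012). Umps was at 127, 128, 117 and 121 CPM in AMPK KO DMSO and at 102.2, 107, 106 and 103 CPM in AMPK KO torin1, with no overlap, and its value in AMPK KO passed the fold limit in 4 of the 8 fits that left out 1 library. All 3 pyrimidine enzymes therefore had negative values with torin1 in both genotypes, of which only those of Dhodh were called. Scaling by library size alone moved the median of all genes on the log2 scale from 0.04 to 0.14 in WT, and in AMPK KO from 0.06 to 0.12, and every value of the 10 genes with it.

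**Figure D3:**
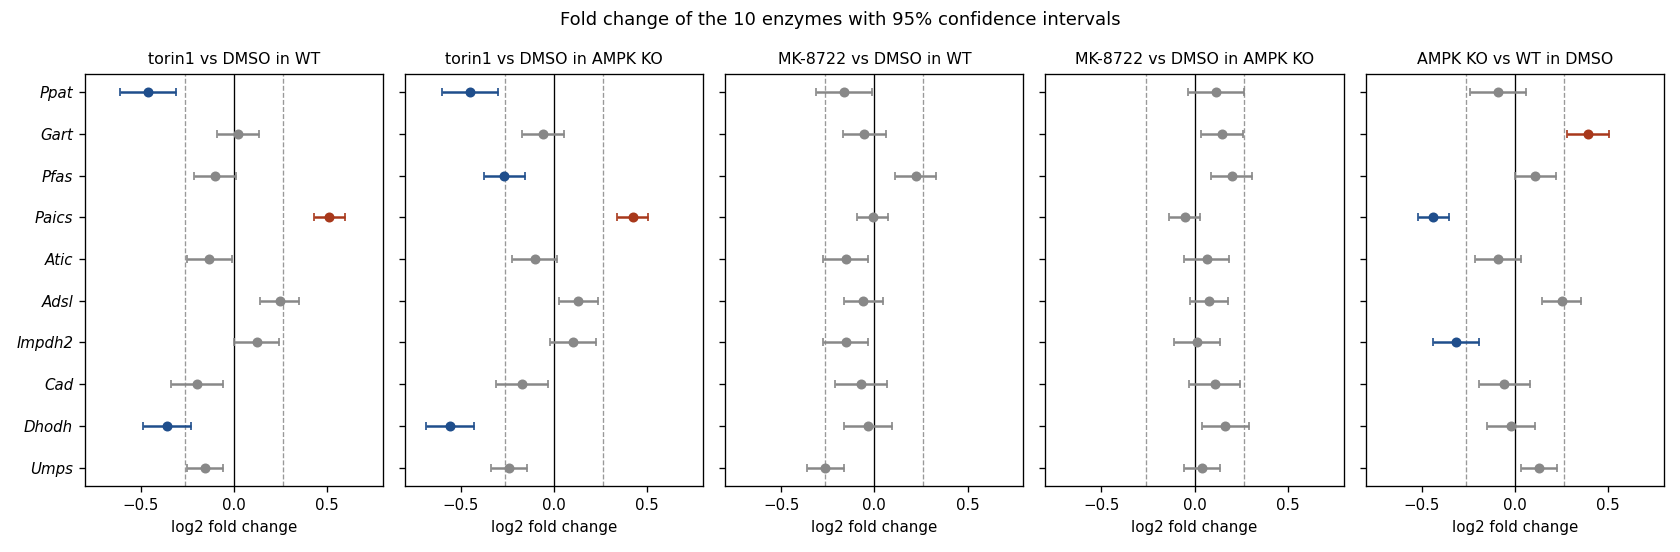
Log2 fold change (x axis) of the 10 enzymes (y axis) in 5 comparisons, with 95% confidence intervals from the edgeR fit. Red and blue points were called higher and lower, grey points were not called, and dashed lines mark a fold change of 1.2. Paics lies to the right and Ppat and Dhodh to the left with torin1 in both genotypes, and no enzyme was called with MK-8722.

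The effect of torin1 was then compared between the genotypes by an interaction term. None of the 10 enzymes was called in either direction, where 4.15% of all genes were called higher and 2.92% lower, positive values meaning a higher response in AMPK KO. By edgeR, Dhodh (-0.20 on the log2 scale, adjusted p = 0.17) and Pfas (-0.17, adjusted p = 0.18) were the 2 enzymes with an unadjusted p below 0.05. DESeq2 also called 0 of the 10. Dhodh was called without AMPK KO torin1 replicate 4 (-0.30, adjusted p = 0.049) and Pfas without AMPK KO torin1 replicate 2 (-0.28, adjusted p = 0.023). The larger decrease of Dhodh and Pfas in AMPK KO is therefore not established.

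The second treatment, MK-8722, addressed activation of AMPK itself. In WT none of the 10 enzymes was called, against 10.0% of all genes called higher and 5.66% lower. In AMPK KO again none was called, against 0.866% and 0.695%. At an adjusted p below 0.05 without a fold limit, 2 enzymes differed in WT, Umps and Pfas, and 1 in AMPK KO, Pfas, and these are described next because they lie just outside the limit.

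Umps, the enzyme that completes uridine monophosphate, was at 111, 108, 112 and 118 CPM in WT DMSO and at 89.7, 103, 89.6 and 92.5 CPM in WT MK-8722, with no overlap. Its log2 difference was -0.26 ± 0.05 (adjusted p = 0.00017, edgeR), a ratio of 0.834. The value passed the limit in 4 of 8 fits that left out 1 library, with DESeq2 (-0.27), with DESeq2 size factors and with passage as a block, so the count of lower enzymes was 0 or 1 depending on the setting. In AMPK KO, Umps was at 127, 128, 117 and 121 CPM with DMSO and at 128, 118, 134 and 127 CPM with MK-8722, which overlap, and the log2 difference was 0.04 ± 0.05 (adjusted p = 0.73).

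The difference between the genotypes was itself called for Umps, the only member among the 10 with a called interaction of MK-8722 and genotype (0.30 ± 0.07 on the log2 scale, adjusted p = 0.0026, edgeR). Over all genes 5.12% were called higher and 7.66% lower in this comparison, and 1 of 10 and 0 of 10 enzymes were. Umps was called in 16 of 16 fits that left out 1 library. Against a fold change of 1.2 it did not pass (adjusted p = 0.65). Of the 10 interaction values, 8 were positive, and the median was 0.19 beside 0.0029 over all genes. For Ppat the value was 0.28 ± 0.10 (adjusted p = 0.064), which was called with passage as a block (0.28, adjusted p = 0.00079), with DESeq2 and with at least 10 counts in every sample. It also passed without the 3 WT libraries of passage 12 (adjusted p = 0.012), without WT MK-8722 replicate 2 (adjusted p = 0.023) and without any 1 of 4 other libraries.

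Pfas was higher with MK-8722 in both genotypes by the adjusted p alone. It was at 133, 132, 125 and 149 CPM in WT DMSO and at 156, 169.8, 151 and 153 CPM in WT MK-8722, with no overlap. In AMPK KO MK-8722 it was at 169, 168, 174 and 158 CPM, above all DMSO libraries. The log2 difference was 0.22 ± 0.05 in WT (adjusted p = 0.0027, edgeR) and 0.20 ± 0.05 in AMPK KO (adjusted p = 0.045). The interaction for Pfas was -0.02, with a 95% interval of -0.18 to 0.13. Without WT DMSO replicate 4 the WT value passed the fold limit (0.28). Over the fits that left out 1 library, the highest adjusted p was 0.026 in WT and 0.14 in AMPK KO (edgeR). Whether the adjusted p in AMPK KO was below 0.05 therefore depended on single libraries. The log2 difference in AMPK KO ran from 0.18 to 0.22 over the same fits.

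For the other 8 enzymes the differences with MK-8722 in WT lay between -0.16 for Ppat and -0.01 for Paics on the log2 scale, with adjusted p from 0.053 to 0.9. In AMPK KO they lay between -0.05 for Paics and 0.17 for Dhodh, with adjusted p from 0.16 to 0.96. Dhodh in AMPK KO was at 31.0, 29.5, 29.5 and 29.1 CPM with MK-8722 against 26.0 to 27 with DMSO, which do not overlap, although the test adjusted over all genes did not call it (0.17 ± 0.06, adjusted p = 0.16). Among WT libraries the ratio of Paics to Ppat was 1.11-fold higher with MK-8722 than with DMSO (exact permutation p = 0.0286, adjusted p = 0.0358), a small change beside that with torin1. The groups only just separated, with a highest ratio of 3.91 in WT DMSO and a lowest of 3.92 in WT MK-8722. The ratio was also chosen after the data had been seen. In AMPK KO the ratio was lower with MK-8722, with a fold of 0.890 (exact permutation p = 0.0571, adjusted p = 0.0571).

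Torin1 was compared with MK-8722 directly in WT, using the same treated libraries as above. There 3 of 10 enzymes were higher with torin1 (Paics, Adsl and Impdh2) and 3 of 10 were lower (Ppat, Pfas and Dhodh), against 24.5% and 21.2% of all genes. Paics differed by 0.52 ± 0.04 on the log2 scale (adjusted p = 1.2e-10, edgeR), Adsl by 0.31 ± 0.05 (adjusted p = 1.5e-05) and Impdh2 by 0.28 ± 0.06 (adjusted p = 0.00032). Pfas differed by -0.32 ± 0.05 (adjusted p = 1.4e-05), Dhodh by -0.33 ± 0.06 (adjusted p = 8.9e-05) and Ppat by -0.30 ± 0.07 (adjusted p = 0.0012). Impdh2 was at 456, 438, 462 and 464 CPM with torin1 and at 349, 434, 352 and 369 CPM with MK-8722, so that the highest MK-8722 library lay just below the lowest torin1 library. Without WT MK-8722 replicate 2, a library of passage 12, the count of lower enzymes fell from 3 to 1, since Ppat (-0.22) and Dhodh (-0.25) no longer passed. Ppat also missed the limit without WT torin1 replicate 1 (-0.23), and Impdh2 without WT MK-8722 replicate 1 (0.23). With library size alone as scaling none of the 3 passed as lower.

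The genotypes were compared in DMSO. In AMPK KO, Gart was higher and Paics and Impdh2 were lower than in WT, so 1 of 10 enzymes was called higher and 2 of 10 lower, where 30.9% of all genes were called higher and 26.0% lower. Gart was at 217, 217, 198 and 209.9 CPM in AMPK KO and at 158, 153, 154 and 176 CPM in WT, with no overlap (0.39 ± 0.05 on the log2 scale, adjusted p = 9.1e-07, edgeR). Paics was at 261 to 275 CPM in AMPK KO against 344 to 383 in WT (-0.44 ± 0.04, adjusted p = 9.3e-10). Impdh2 was at 334, 345, 338 and 327 CPM in AMPK KO and at 395, 396, 412 and 469.9 CPM in WT (-0.32 ± 0.06, adjusted p = 5e-05). Its call was lost with library size alone as scaling (-0.18), which moved the median of all genes from 0.02 to 0.16. Adsl lay just outside the limit at 0.25 ± 0.05 (adjusted p = 9.9e-05), and passed it without WT DMSO replicate 4 (0.29), which made 2 enzymes higher instead of 1. Umps was higher by the adjusted p alone (0.13 ± 0.05, adjusted p = 0.016) and passed the fold limit with library size alone as scaling (0.27). Pfas differed by 0.11 ± 0.05 (adjusted p = 0.072). Ppat, Dhodh, Cad and Atic had log2 differences between -0.09 and -0.02, with adjusted p from 0.18 to 0.79. In the same comparison 8 of 9 fibroblast markers tested were lower in AMPK KO, Col1a2 by 6.46 on the log2 scale, so the lines differ broadly, and the part of this in the values of the enzymes was not tested.

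The enzymes were set beside the genes that supply or use their products, in lists chosen with earlier results of these data known. Their counts stand beside the shares of all genes given above, with torin1 26.6% higher and 21.1% lower for WT, then 25.9% higher and 17.6% lower for AMPK KO, and were not tested against them. Among these lists, those for the supply of one-carbon units and amino acids had the largest shares of lower calls with torin1. Of 13 one-carbon genes tested, 0 were higher and 10 lower in WT and again 0 and 10 in AMPK KO, with medians of -0.92 and -0.91 on the log2 scale, against -0.12 and -0.14 for the 10 enzymes. Psph, the phosphatase that completes serine synthesis, fell by 2.74 ± 0.21 on the log2 scale in WT (adjusted p = 1.1e-10, edgeR). Mthfd2 fell by 2.62 ± 0.11 (adjusted p = 2.2e-14) and is named because of its place in the background above, after its value had been seen. Of 10 genes for glutamine and aspartate supply, 8 were lower and 1 higher in WT and 7 and 0 in AMPK KO. There Asns, asparagine synthetase, fell by 1.77 ± 0.15 (adjusted p = 8.2e-10) and Glul, glutamine synthetase, rose by 0.48 ± 0.06 in WT (adjusted p = 1e-07). Atf4 itself fell by 1.86 ± 0.09 in WT (adjusted p = 1e-13) and by 1.68 ± 0.09 in AMPK KO (adjusted p = 1.2e-12). The part of Atf4 in the changes of these lists was not tested.

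Enzymes next to the 10 in the pathways were mixed. Of 15 other purine synthesis genes, 3 were higher and 6 lower with torin1 in WT, where 26.6% and 21.1% of all genes were. In AMPK KO 2 were higher and 6 lower, against 25.9% and 17.6% of all genes. Ak4, an adenylate kinase of mitochondria, fell by 1.81 ± 0.16 on the log2 scale (adjusted p = 1.2e-09, edgeR) and Adssl1, an adenylosuccinate synthase, rose by 0.74 ± 0.26 (adjusted p = 0.017) in WT. Adssl1 was near the floor there, at 0.31 to 1.12 CPM with DMSO and 0.86 to 1.45 with torin1, which overlap. Its mean was 0.70 CPM in WT DMSO against 5.34 in AMPK KO DMSO. Impdh1, the second IMP dehydrogenase, fell by 0.74 ± 0.04 in WT (adjusted p = 1.6e-12) and by 0.53 ± 0.04 in AMPK KO (adjusted p = 6.8e-10), while Impdh2 was not called, and it was picked after its value had been seen. Of 15 purine salvage and breakdown genes tested, 2 were higher and 8 lower in WT, with Ampd2, an AMP deaminase, at -0.95 ± 0.08 (adjusted p = 4.8e-10) and Dguok, deoxyguanosine kinase, at 0.67 ± 0.08 (adjusted p = 2.8e-07).

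The counts in WT that follow stand beside 26.6% of all genes called higher with torin1 and 21.1% lower. Of 9 other pyrimidine synthesis genes, 2 were higher and 2 lower in WT, led by Nme3 (0.65 ± 0.15, adjusted p = 0.00046) and Nme1 (-1.0 ± 0.06, adjusted p = 4.8e-12), both nucleoside diphosphate kinases. Of 12 pyrimidine salvage and breakdown genes tested, 5 were higher and 2 lower, with Upp2, a uridine phosphorylase, at 0.93 ± 0.20 (adjusted p = 0.00023) and Tk1, cytosolic thymidine kinase, at -0.49 ± 0.07 (adjusted p = 1.4e-06). Of 8 deoxynucleotide genes 1 was higher and 2 lower, and these included the ribonucleotide reductase subunits Rrm2b (0.45 ± 0.10, adjusted p = 0.00047) and Rrm2 (-0.37 ± 0.06, adjusted p = 3.1e-06). Of 4 nucleoside transporters tested 1 was higher, Slc29a3 (0.75 ± 0.06, adjusted p = 9.1e-11). Of 20 DNA replication genes, which use the products, 10 were higher and 2 lower in WT, with Pole, a replicative polymerase, at 0.91 ± 0.06 (adjusted p = 2.9e-12) and Fen1, a flap endonuclease, at -0.57 ± 0.04 (adjusted p = 7.3e-12). Of 14 transcription factors 2 were higher and 6 lower, with Mycl at 0.56 ± 0.10 (adjusted p = 3.9e-05).

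**Figure D4:**
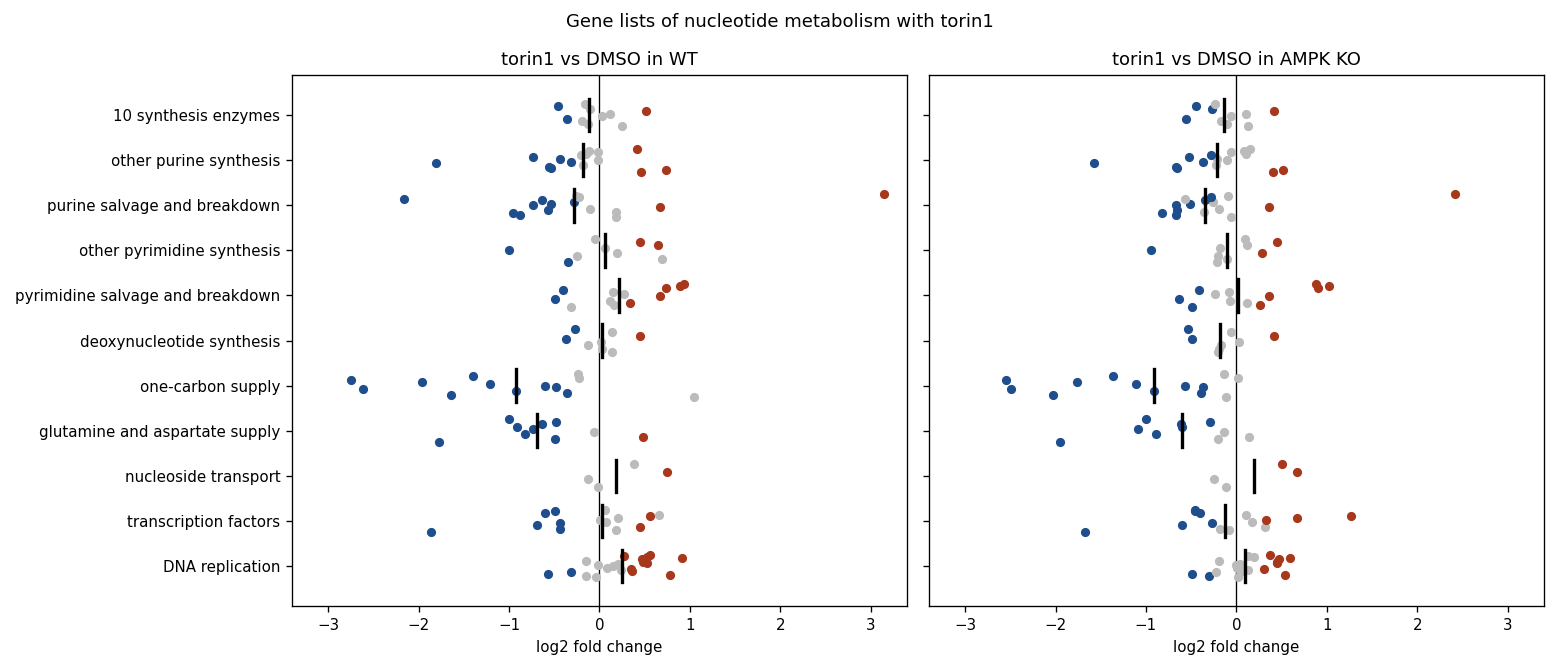
Log2 fold change with torin1 (x axis) of the genes in 11 lists (y axis) in WT and in AMPK KO. Each point is a gene tested, red where called higher, blue where called lower and grey otherwise, and black bars are list medians. The one-carbon list has medians of -0.92 and -0.91, whereas the 10 synthesis enzymes scatter around -0.12 and -0.14.

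With MK-8722 in WT the counts of the lists stand beside 10.0% of all genes called higher and 5.66% lower, and were likewise not tested against them. Of the other purine genes 0 were higher and 1 lower, Ak3 (-0.29 ± 0.06, adjusted p = 5e-04, edgeR), and of the other pyrimidine genes 0 of 9 were called in either direction. Of the purine salvage and breakdown genes 2 were higher and 0 lower, Ampd3, an AMP deaminase, at 0.96 ± 0.26 (adjusted p = 0.0067) and Xdh, xanthine dehydrogenase, which was named after its value had been seen and lay at 0.67 to 1.2 CPM against 0.07 to 0.18 with DMSO. Ampd3 was also low, at 1.09 to 2.40 CPM against 0.62 to 1.44 with DMSO, which overlap. Of the pyrimidine salvage genes 1 was higher, Uckl1, named as a uridine-cytidine kinase (0.73 ± 0.09, adjusted p = 6.4e-07). Of the deoxynucleotide genes 1 was higher, Rrm2b (0.52 ± 0.10, adjusted p = 0.00043), and 2 were lower, led by Tyms, thymidylate synthase (-0.34 ± 0.04, adjusted p = 5.6e-07). Of the one-carbon genes 1 was higher, Mthfd2l (0.27 ± 0.09, adjusted p = 0.029), and 1 lower, Psat1 (-0.45 ± 0.09, adjusted p = 0.00081). The lists for amino acid supply, nucleoside transport and DNA replication held 2, 1 and 1 lower genes and 0 higher, led by Glul (-0.34 ± 0.06, adjusted p = 9.4e-05), Slc29a1 (-0.36 ± 0.07, adjusted p = 0.00045) and Cdc6 (-0.34 ± 0.05, adjusted p = 1.6e-05). Of the transcription factors 1 was higher, Mlx (0.32 ± 0.05, adjusted p = 8.2e-05), and 4 were lower, led by Mxd4 (-0.91 ± 0.08, adjusted p = 6.1e-09).

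The libraries of the earliest WT passage stood apart for these enzymes. In WT DMSO and in WT MK-8722 the passage 12 library had the highest CPM for 10 of 10 enzymes, and in WT torin1 for 8 of 10, all but Cad and Dhodh. In a fit with group and passage, the passage 12 libraries were above passages 13 to 15 for all 10 enzymes, from 0.09 for Paics (adjusted p = 0.033) to 0.25 for Ppat (adjusted p = 7.4e-05) on the log2 scale, so that none reached 1.2-fold. By adjusted p alone 10 of 10 were higher and 0 lower, against 11.3% and 9.58% of all genes tested (edgeR). The passage contrasts were added after the data had been seen, so their p-values are no separate support for the pattern. They also treat libraries of the same passage as independent, although these deviated together, and the 10 enzymes share those libraries. In AMPK KO the passage 16 libraries did not stand above passages 17 to 19. There 0 of 10 were higher and 3 of 10 lower by adjusted p alone, against 5.83% and 7.34% of all genes: Atic (-0.14, adjusted p = 0.0042), Gart (-0.10, adjusted p = 0.013) and Umps (-0.09, adjusted p = 0.035). The passages are of different cell lines and each passage gave 1 library per group, so passage cannot be told apart from the culture it was taken from. Without the 3 passage 12 libraries, Paics remained higher and Ppat and Dhodh lower with torin1 in WT, and Adsl was also called higher (0.27).

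**Figure D5:**
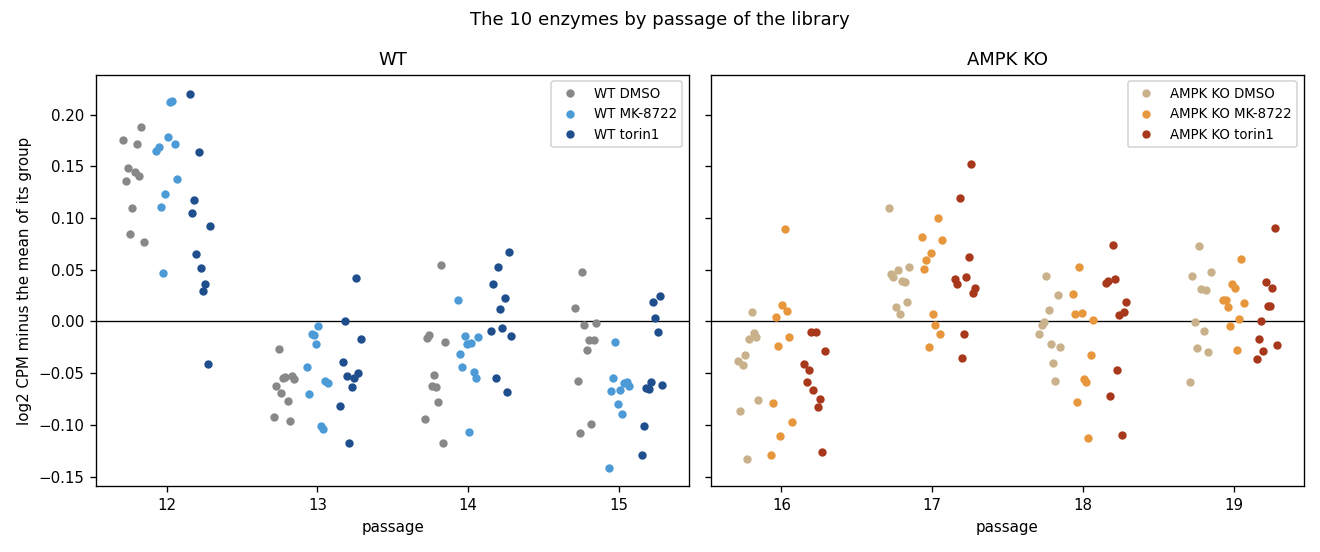
Log2 CPM of each enzyme minus the mean of its group (y axis) by passage of the library (x axis), in WT and in AMPK KO. Points of 1 colour in a column are the 10 enzymes of 1 library. The points at passage 12 lie above 0 for 10 of 10 enzymes with DMSO and MK-8722, whereas the passage 16 library of AMPK KO had the highest level of 0, 1 and 0 of 10 enzymes in the DMSO, MK-8722 and torin1 groups.

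The share of each enzyme's TPM held by its leading transcript, the one with the highest mean TPM, was compared in 50 differences, 10 enzymes in 5 comparisons. In the exact permutation test, whose smallest p is 0.0286 here, 0 had an adjusted p below 0.05 and 2 had an unadjusted p below 0.05. At this number of libraries and tests a single difference cannot pass the adjustment, so the test does not show that the shares were stable. The leading transcript of Ppat is annotated as a retained intron (ENSMUST00000031158). It held 50.5% ± 2.84 (SD, n = 4) of Ppat TPM in WT DMSO and 43.3% ± 1.08 in AMPK KO DMSO, with no overlap between the libraries (exact permutation p = 0.0286, adjusted p = 0.714). With torin1 it held 51.7% ± 1.32 in WT and 45.0% ± 1.64 in AMPK KO, 1.14 and 1.73 percentage points above the share with DMSO (exact permutation p = 0.571 and p = 0.171). The other difference was in Atic, at 91.3% ± 0.72 in AMPK KO DMSO and 93.8% ± 1.23 in AMPK KO MK-8722 (exact permutation p = 0.0286, adjusted p = 0.714). These shares rest on how short reads were divided between transcripts that overlap.

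Across the 6 groups the median of the centred log2 CPM over the 10 enzymes ran from -0.12 in WT torin1 to 0.18 in AMPK KO MK-8722, a median over genes of which Paics rose and Ppat and Dhodh fell with torin1. Cad was nearest to this median profile, with a mean absolute difference of 0.02, and Paics farthest, with 0.32. Paics also spanned the widest range over the groups, 1.0, against 0.19 for Atic, the narrowest. Among 10418 genes outside the lists with a mean of at least 5 CPM, the 5 with the most similar profile over the 6 group means were Csnk2a3, Col16a1, Zmpste24, Prrc2b and Myo9b, with mean absolute differences of 0.020 to 0.023. The likeness rests on 6 points that share libraries and scaling.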

How the data were processed

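Poly(A) RNA libraries of mouse embryonic fibroblasts, 4 in each of 6 groups, were sequenced as paired ends. The authors aligned reads to GRCm38 with STAR and quantified them with Salmon in the nf-core/rnaseq workflow. The deposited values are estimated counts and TPM per gene and per transcript, where TPM was scaled by the authors for transcript length and library total, and they sum to 26900240 to 34192685 counts per library. Whether counting used strand is not given in the sources used here. Estimated counts were rounded and tested with edgeR 4.0.16 in R 4.3.3 (TMM, filterByExpr, quasi-likelihood F-test, group means over all 24 libraries, Benjamini-Hochberg adjustment over 15828 genes holding 99.96% of counts). A call needed an adjusted p below 0.05 and a fold change of at least 1.2. Single values were tested by two-sided exact permutation with scipy 1.17.1. SEs and 95% intervals came from the fit and include counting error. That error is a larger part of them for Dhodh, at 537 to 1048 counts per library, than for the other enzymes.

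Groups, passages and replicate numbers came from the labels. The alternatives were DESeq2 1.42.0, other scalings and count filters, a transcript length offset, passage or replicate number as a block, other call rules and leaving out each library. The fit without the passage 12 libraries, the passage contrasts and the Paics to Ppat ratio were added after seeing the data. Within a genotype, libraries of the same passage deviated together (correlation -0.195 to 0.788, median 0.434, above 0.1 in 23 of 24 pairs). The fits were tested on simulated data. The 10 enzymes and the gene lists were chosen with earlier results of these data known. Named genes of a list were, per list, the top riser and the top faller among the calls with torin1 and with MK-8722 in WT, at a mean of at least 1 CPM, and others are marked in the text as chosen after their values were seen.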

Additional observations from a re-analysis of the deposited data

Results flagged for a closer look

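Among the 60 combinations of enzyme and group, 5 had 1 library set apart from the other 3 by more than Dixon's 95% limit, which chance exceeds in about 1 in 20 groups. All 5 libraries were of passage 12. In WT MK-8722 replicate 2, Gart was at 173 CPM against 147 to 151 in the others, Paics at 371 against 354 to 356, Cad at 486 against 390.4 to 406 and Dhodh at 29.6 against 25.2 to 25.3. In WT DMSO replicate 4, Adsl was at 142 CPM against 123 to 126. These 5 values come from 2 libraries and are not separate events.

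The response of Umps to MK-8722 differed between the genotypes by 0.30 on the log2 scale (adjusted p = 0.0026, edgeR interaction term), with a lower level in WT and overlapping groups in AMPK KO.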

How the results depend on the processing

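Of 1780 values of single enzymes and of the Paics to Ppat ratio under an alternative, 1645 kept their direction and call, 44 gained a call, 26 lost one and 65 changed sign without a call in either fit. None reversed a called direction. The counts below are enzymes called of 10, and those not given kept within 1.5 times the reported count. By adjusted p alone, MK-8722 in WT gave 1 higher and 1 lower, MK-8722 in AMPK KO 1 higher, torin1 in WT 2 higher and 4 lower, torin1 in AMPK KO 2 higher and 5 lower, and AMPK KO against WT 3 higher. With a fold change of at least 1.5 the counts were 0 in both directions for torin1 in each genotype, torin1 against MK-8722 and AMPK KO against WT, and 0 higher for the MK-8722 interaction. Tested against a fold change of 1.2, torin1 in WT gave 1 lower, torin1 against MK-8722 gave 1 higher and 0 lower, AMPK KO against WT gave 1 lower and the MK-8722 interaction 0 higher. Library size alone gave 2 higher and 1 lower for torin1 in WT, 0 lower for torin1 against MK-8722, and 3 higher and 1 lower for AMPK KO against WT. At least 10 counts in every sample gave 1 lower for MK-8722 in WT, 2 higher for torin1 in WT, 2 higher and 1 lower for AMPK KO against WT and 2 higher for the MK-8722 interaction. MK-8722 in WT gave 1 lower (Umps) with DESeq2 size factors, no filter, passage as a block, DESeq2 and without the passage 12 libraries. The MK-8722 interaction gave 2 higher with passage as a block, DESeq2 and without passage 12. Torin1 in WT gave 2 higher with the length offset and without passage 12, which also gave 2 higher for AMPK KO against WT and 1 lower (Dhodh) for the torin1 interaction. Leaving out 1 library gave ranges of 0 to 1 higher and 0 to 1 lower for MK-8722 in WT, 1 to 2 higher for torin1 in WT, 2 to 5 lower for torin1 in AMPK KO, 1 to 3 lower for torin1 against MK-8722, 1 to 2 higher for AMPK KO against WT, 1 to 3 higher for the MK-8722 interaction and 0 to 1 lower for the torin1 interaction. The causes were not tested. The replicate numbers are shared across genotypes but do not pair the libraries (median correlation -0.0211). With the replicate block no count of enzymes moved, and 7527 rather than 7540 genes were called for torin1 in WT. With passage as a block 729 rather than 247 genes were called for MK-8722 in AMPK KO and 1861 rather than 1119 for the torin1 interaction. The depth leaves little counting error for most of the enzymes, though more for Dhodh, and 4 libraries per group limit the precision.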
